A study of Mus musculus with 6 samples.

Results

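The Clec genes of the C-type lectin domain family were examined in RNA-seq libraries of mouse LSECs, the endothelial cells that line liver sinusoids. Members were taken as every gene whose symbol is Clec followed by a number, lower-case letters and an optional digit, with Clec4f and Clec4g left out, which gave 32 of the 60832 genes in the table. Bevacizumab-sensitive HCT116 CRCLM xenografts (liver metastases of colorectal cancer) gave 3 LSEC libraries, and bevacizumab-resistant ones gave 3. HCT116 is a human colorectal cancer cell line, and bevacizumab is an antibody against VEGF-A. The hosts of the study's xenografts were male BALB/c-Nu mice, athymic animals that lack T cells and keep macrophages, neutrophils and NK cells, aged 4 to 6 weeks, with tumor cells injected into the left main liver lobe. The resistant model was made with bevacizumab at 10 mg/kg, with a length of 42 days in one passage of the study's text and of 7 weeks in another, and its vehicle mice received IgG. What the donors of the sensitive libraries received is not stated in the labels. In both groups the cells were taken with anti-CD146 beads and had been cultured for 24 h.

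The libraries held between 17599326 and 20726684 counts on genes, so that 3 counts corresponded to 0.145 to 0.170 CPM (counts scaled to the library total), a detection limit for counting error alone. Markers of macrophages and Kupffer cells were abundant in every library, and pan-endothelial markers were low. The CPM of 14 macrophage and Kupffer cell markers summed to between 22130 and 34430, that of 10 LSEC markers to between 616 and 1189, and that of 10 pan-endothelial markers to between 39.4 and 401. Stab1 alone made up most of the LSEC sum in each library, with between 462.7 and 773.5 CPM, while Lyve1 ranged from 7.67 to 253.4 CPM. Mcam, the gene of CD146, had between 6 and 79 counts. The study's methods report a purity above 95% for CD146-positive cells by flow cytometry, which measures protein and not RNA. Markers of neutrophils summed to 5022, 6683 and 513 CPM in sensitive replicates 1, 2 and 3 and to 1979, 1460 and 261 CPM in resistant replicates 1, 2 and 3. Sensitive replicate 2 stood apart from the rest, with Pearson's r of log2 CPM across genes, which are not independent, between 0.860 and 0.901 in the 5 pairs that include it and between 0.954 and 0.974 in the other 10. In such bulk libraries, fewer cells of a type and less RNA per cell cannot be told apart.

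C-type lectin receptors are membrane proteins, mostly of myeloid cells, that bind glycans, lipids or proteins through a shared fold. Activating members such as Dectin-1 carry a hemITAM tail motif or pair with the Fc receptor gamma chain or DAP12, and signal through the kinase SYK and the adaptor CARD9. Inhibitory members carry an ITIM and recruit the phosphatases SHP-1 and SHP-2. In the liver these receptors are known mainly from Kupffer cells, other macrophages, dendritic cells and neutrophils, while a few members are endothelial, secreted or, like Clec16a, intracellular.

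The Clec genes together made up between 0.136% and 0.190% of all counts, or 1467, 1899 and 1630 CPM in sensitive replicates 1, 2 and 3 and 1358, 1894 and 1626 CPM in resistant replicates 1, 2 and 3. These sums overlapped between the groups. Per length, in the FPKM of the authors, the most abundant member was Clec4d, with a mean level of 193 (range 89.9 to 340.5) over the 6 libraries. It was followed by Clec4a1 with 102 (range 75.3 to 144), Clec4a3 with 87.6 (range 67.1 to 123), Clec4n with 86.6 (range 45.9 to 138) and Clec7a with 83.5 (range 43.8 to 117), and the ranges of these 5 genes overlapped. Clec10a with 48.4 (range 27.1 to 89.0), Clec1b with 45.4 (range 27.1 to 90.5), Clec12a with 23.1 (range 12.6 to 37.7), Clec2d with 19.9 (range 11.8 to 36.4), Clec2i with 17.7 (range 7.16 to 28.2) and Clec4a2 with 15.9 (range 11.7 to 23.6) came next. The make-up of the sum differed between libraries, as the stacked bars of FPKM show. Clec4d was the first member by FPKM in sensitive replicates 1 and 2 and resistant replicates 2 and 3, Clec4a1 in sensitive replicate 3 and Clec4n in resistant replicate 1. Clec4d made up 36.5% and 35.5% of the family's FPKM in resistant replicates 2 and 3, and between 14.6% and 26.4% in the other libraries.

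**Figure D1:**
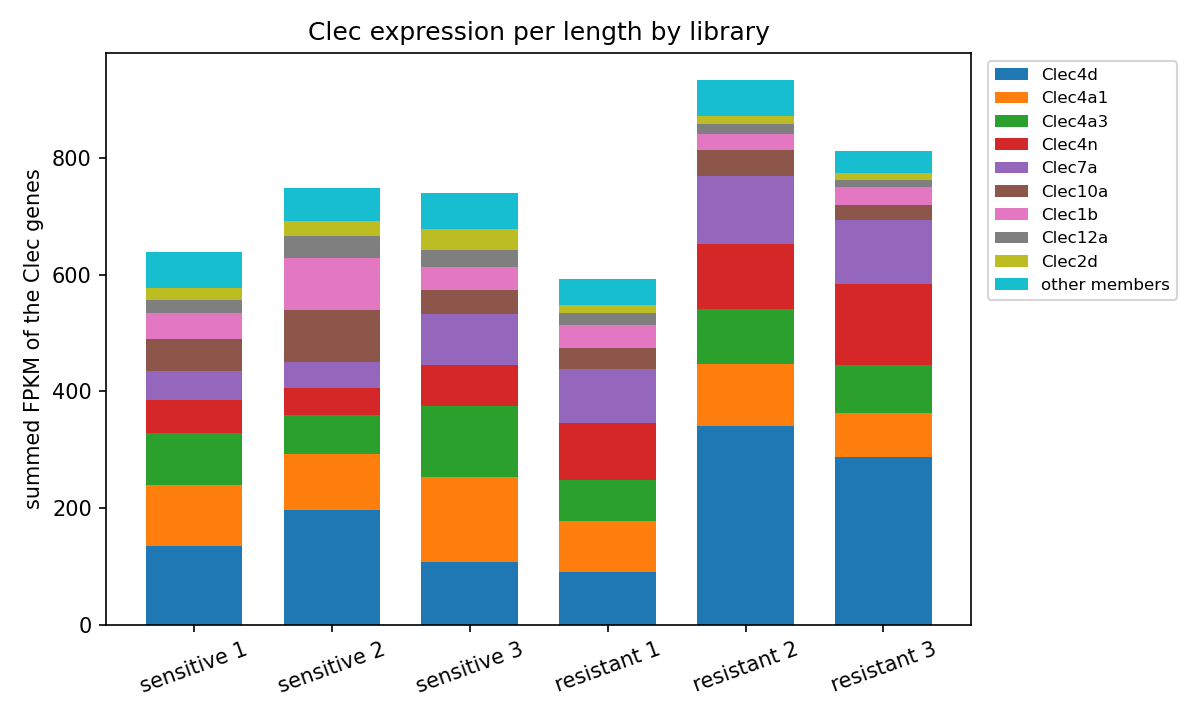
Summed FPKM of the 32 Clec genes in each library, stacked by gene for the 9 genes with the highest mean FPKM and for all others together. The bars reach from 593 to 933, and the Clec4d segment is tallest in resistant replicates 2 and 3, at 340.5 and 288.

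The question of the comparison is whether expression in these cells differed between resistant and sensitive xenografts. Of the 32 members, 22 passed the filter on low counts and 10 did not. By edgeR's quasi-likelihood test and Benjamini-Hochberg adjusted p-values, 0 members and 0 of all 15474 genes tested (0%) passed 0.05. DESeq2 passed 24 genes and limma-voom 0, with 0 members in either. At an unadjusted p below 0.05, 7 members passed edgeR's test, against 476 of the 15474 genes (3.08%). Clec4n and Clec7a were higher in the resistant group, where the background is 0.536% of genes, and Clec4e, Clec4b1, Clec2d, Clec1b and Clec12a were lower, where it is 2.54%. Fold changes of the tested members were above 0 for 7 (50.8% over all genes tested) and below 0 for 15, with a median log2 fold change of -0.47 against 0.01 over all genes tested. The split was 7 and 15 with RLE size factors and with library totals alone, and 9 and 13 with limma-voom. After TMM scaling the groups lay fully apart for 5 members, where the background is 9.02% of genes. Clec4n was higher in resistant libraries (background 4.64%), and Clec4e, Clec2d, Clec12a and Clec1b were lower (background 4.38%). Members that barely pass the filter can do so through 1 group. Restricted to the 16 members with at least 10 counts in every library, the count at an unadjusted p below 0.05 was also 7, with Clec10a in place of Clec4b1.

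**Figure D2:**
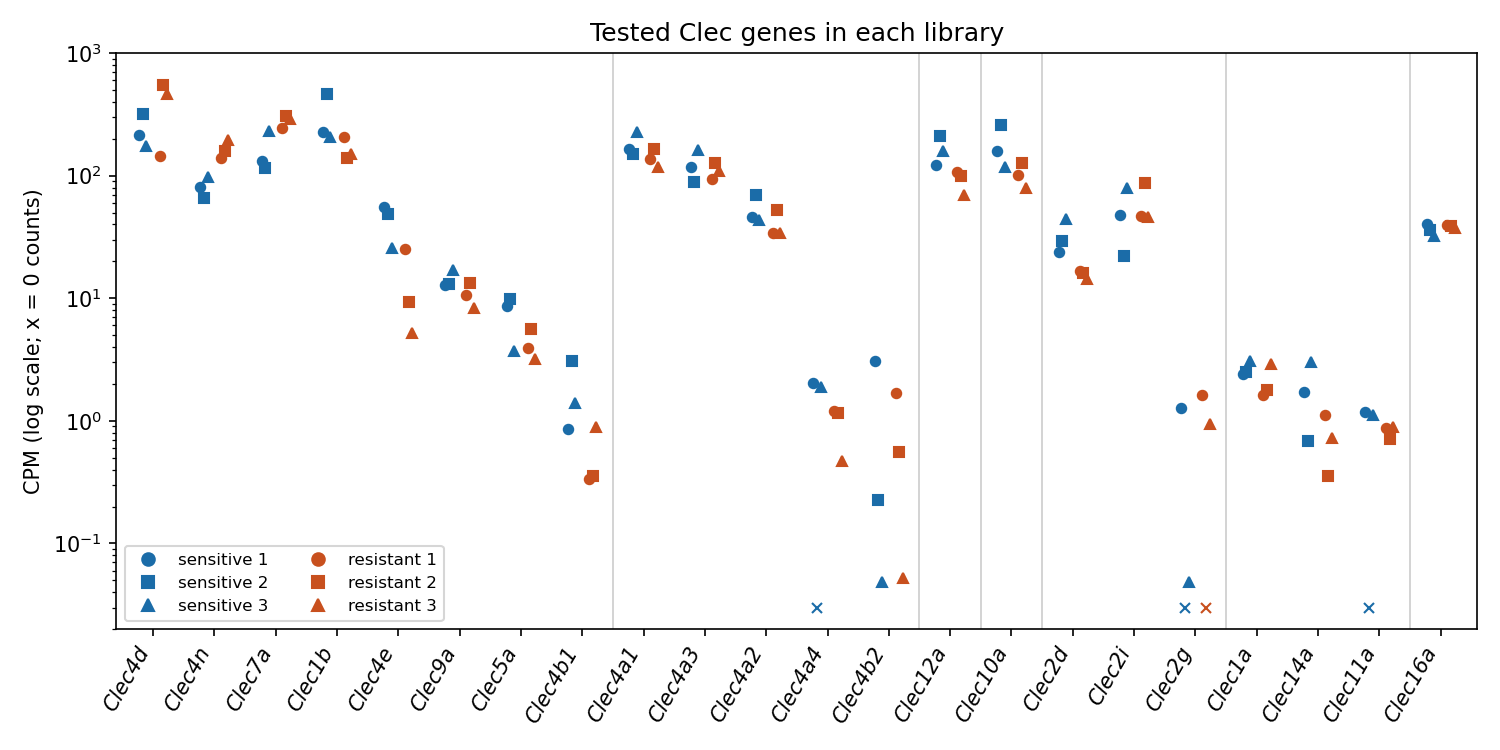
CPM of the 22 tested Clec genes in each library on a log axis, sensitive libraries in blue and resistant libraries in orange, with marker shapes for the replicate numbers and crosses for 0 counts. Vertical lines part the roles. The levels span from 0 to 544 CPM, and the groups lie apart for Clec4n, Clec7a, Clec4e, Clec2d and Clec12a.

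Among the 8 members counted here as activating receptors, 3 had fold changes above 0 and 5 below. Clec4n encodes Dectin-2, a receptor for fungal mannans (chr6:123229843-123247021, plus strand of GRCm38). It had 80.7, 65.2 and 98.2 CPM in sensitive replicates 1, 2 and 3 and 139.6, 158 and 196 CPM in resistant replicates 1, 2 and 3. Every resistant library lay above every sensitive one, and the group means were 81.4 ± 16.5 CPM (SD, n = 3) for sensitive and 164 ± 28.6 CPM (SD, n = 3) for resistant libraries, a ratio of 2.02. The log2 fold change of 0.96 (standard error 0.229, unadjusted p = 0.00388, edgeR) gave the smallest p-value of the family, with an adjusted p of 0.940. Left-out libraries moved the fold change to between 0.82 and 1.11 on the log2 scale.

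Clec7a encodes Dectin-1, the receptor for fungal beta-glucans (chr6:129461591-129472779, minus strand). GENCODE gives the gene the type polymorphic pseudogene. It had 131, 116 and 233 CPM in sensitive replicates 1, 2 and 3 and 245, 308 and 289 CPM in resistant replicates 1, 2 and 3. In plain CPM every resistant library lay above every sensitive one, but after TMM scaling resistant replicate 1, at 229.8, lay below sensitive replicate 3, at 234. For Clec7a this was a log2 fold change of 0.76 (standard error 0.3005, unadjusted p = 0.0395, edgeR). Without sensitive replicate 2, in which Clec7a was lowest, the value was 0.62, with an unadjusted p of 0.0854 in edgeR. The unadjusted p was also above 0.05 without sensitive replicate 1 (0.127), resistant replicate 2 (0.117) or resistant replicate 3 (0.0919), again in edgeR.

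Clec4d and Clec4e are neighbors on chromosome 6 and encode MCL and Mincle, receptors for mycobacterial glycolipids that pair with each other and with the Fc receptor gamma chain. Clec4d (chr6:123262111-123275265, plus strand) had 215, 315 and 173 CPM in sensitive replicates 1, 2 and 3 and 144, 544 and 461 CPM in resistant replicates 1, 2 and 3. Its groups overlapped, since resistant replicate 1 held the lowest level and replicates 2 and 3 the highest ones. Its log2 fold change of 0.63 had a standard error of 0.533 and did not pass (unadjusted p = 0.273, edgeR). It was 0.28 (unadjusted p = 0.641, edgeR) without resistant replicate 2, 1.008 (unadjusted p = 0.136, edgeR) without sensitive replicate 2 and 1.05 (unadjusted p = 0.0298, edgeR) without resistant replicate 1. Clec4e (chr6:123281789-123289870, minus strand) had 55.2, 48.5 and 25.7 CPM in sensitive replicates 1, 2 and 3 and 25.0, 9.26 and 5.25 CPM in resistant replicates 1, 2 and 3. Every resistant library was below every sensitive one, although resistant replicate 1 and sensitive replicate 3 were nearly level. The means were 43.1 ± 15.5 CPM (SD, n = 3) for sensitive and 13.2 ± 10.4 CPM (SD, n = 3) for resistant libraries, with a log2 fold change of -1.80 (standard error 0.582, unadjusted p = 0.0171, edgeR).

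The levels of the pair parted in some libraries. The ratio of Clec4d to Clec4e in FPKM was 12.1, 20.2 and 20.9 in sensitive replicates 1, 2 and 3, and 17.9, 183 and 272 in resistant replicates 1, 2 and 3. Resistant replicate 1 lay within the range of the sensitive group, and the other 2 resistant libraries were far above it. Without resistant replicate 2 the log2 fold change of Clec4e was -1.62 (unadjusted p = 0.0565, edgeR), and without any other library the unadjusted p stayed below 0.05. Neutrophils also express Clec4e. Of the neutrophil markers, 9 of 9 were tested with fold changes below 0. In edgeR 1 had an unadjusted p below 0.05, against 3.08% of all genes tested. The sums of these markers were highest in sensitive replicates 1 and 2, the libraries with most Clec4e. In sensitive replicate 3 these markers were lower than in resistant replicates 1 and 2, while its Clec4e was higher. Their part in the result was not tested.

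Because Clec4d, Clec4e and Clec7a are the abundant or most separated activating receptors with a RefSeq promoter entry, their 250 bases before the gene start are printed below on the gene's own strand (GRCm38.p6), with those of Clec2d, the most separated Clr gene. Capitals mark matches on either strand to GAGGAA, letters of the site of PU.1, an ETS factor, and to TTNNGNAA, letters of the C/EBP site. N stands for any base.
Clec7a, chr6:129472786-129473035, minus strand: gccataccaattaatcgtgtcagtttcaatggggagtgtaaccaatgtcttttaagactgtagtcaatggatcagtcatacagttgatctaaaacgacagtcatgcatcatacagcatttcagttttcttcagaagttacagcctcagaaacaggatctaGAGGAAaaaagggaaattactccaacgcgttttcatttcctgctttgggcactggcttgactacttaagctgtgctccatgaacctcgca
Clec4d, chr6:123261857-123262106, plus strand: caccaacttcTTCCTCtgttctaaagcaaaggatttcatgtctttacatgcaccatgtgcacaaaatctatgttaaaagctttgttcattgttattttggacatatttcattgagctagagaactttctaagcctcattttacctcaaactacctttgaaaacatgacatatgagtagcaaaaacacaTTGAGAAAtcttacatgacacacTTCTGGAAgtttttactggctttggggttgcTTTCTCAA
Clec4e, chr6:123289872-123290121, minus strand: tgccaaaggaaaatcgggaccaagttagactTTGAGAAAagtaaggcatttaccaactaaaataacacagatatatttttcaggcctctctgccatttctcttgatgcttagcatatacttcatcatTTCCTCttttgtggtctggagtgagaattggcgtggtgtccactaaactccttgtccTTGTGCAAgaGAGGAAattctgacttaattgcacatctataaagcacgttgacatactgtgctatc
Clec2d, chr6:129180365-129180614, plus strand: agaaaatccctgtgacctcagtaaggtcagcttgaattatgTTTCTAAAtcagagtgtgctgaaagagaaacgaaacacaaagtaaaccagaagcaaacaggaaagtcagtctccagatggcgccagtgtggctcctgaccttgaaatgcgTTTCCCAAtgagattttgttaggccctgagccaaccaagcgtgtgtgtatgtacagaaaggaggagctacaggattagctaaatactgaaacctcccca
In these windows Clec7a held 1 match to GAGGAA, Clec4d 1 match to GAGGAA and 3 to TTNNGNAA, Clec4e 2 and 2, and Clec2d 2 matches to TTNNGNAA. Over the members, 24 had a promoter entry, and 14 of these (58.3%) held GAGGAA, against 25.9% of the 27025 genes with an entry. For TTNNGNAA the numbers were 12 of 24 members and 40.3% of genes. These short motifs were chosen after matches to them had been read in the members' own promoters, so their shares among members are a description and are raised by that choice. The 3 longer motifs searched before them were found in 0 members for GAGGAAGT of PU.1 (2.8% of genes), in 1 member for TTGCGCAA of C/EBP (0.2% of genes) and in 0 members for an NF-kB motif of 10 bases (0.1% of genes). A match describes letters and not a bound site.

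The other activating receptors had fold changes below 0. Clec1b encodes CLEC-2, the podoplanin receptor of platelets that mouse Kupffer cells also make (chr6:129397297-129409335, plus strand). It had 228, 462 and 205 CPM in sensitive replicates 1, 2 and 3 and 207, 138 and 151 CPM in resistant replicates 1, 2 and 3. The level in sensitive replicate 2 was more than 2 times that of any other library. The groups overlapped in plain CPM and did not after TMM scaling, where the nearest values were 206 and 194. For Clec1b there was a log2 fold change of -0.97 (standard error 0.404, unadjusted p = 0.0467, edgeR), and the value was -0.39 without sensitive replicate 2, at an unadjusted p of 0.0619 in edgeR. The unadjusted p was also above 0.05 without resistant replicate 1 (0.0615), 2 (0.126) or 3 (0.115), again in edgeR. The 8 platelet and megakaryocyte markers summed to between 113 and 137 CPM in sensitive and between 93.7 and 429.9 in resistant libraries, and Pf4 made up most of this sum, with 420 CPM in resistant replicate 2. Of these markers 5 were tested, 2 with fold changes above 0 and 3 below. Itga2b was highest in sensitive replicate 2, like Clec1b, with 413 counts there and between 56 and 274 in the other libraries. Pf4, Ppbp and Gp1ba were not, with 87.4, 0.682 and 0.796 CPM in that library. Their highest levels were 420 CPM in resistant replicate 2, 7.89 CPM in sensitive replicate 1 and 2.70 CPM in resistant replicate 1. Gp9 had 22, 13 and 13 counts in sensitive replicates 1, 2 and 3 and 5, 2 and 4 in resistant replicates 1, 2 and 3. Its groups lay apart, with a log2 fold change of -2.20 (unadjusted p = 0.0142, edgeR). Gp9 reached the level of the filter in all 3 sensitive libraries and in 0 resistant ones. The passed filter thus follows the difference itself, and the p-value gives no separate support. Gp1bb was at 0 in every library, and Gp6 had at most 11 counts. The part of platelet RNA in the Clec1b result was not tested. Of the 14 macrophage and Kupffer cell markers, all were tested, 7 with fold changes above 0 and 7 below. In edgeR 1, Timd4, had an unadjusted p below 0.05 (0.0371), against 3.08% of all genes tested. Its log2 fold change was -1.70. Marco, Cd5l and C1qa were highest in sensitive replicate 2, like Clec1b, while Adgre1, Csf1r and Vsig4 were lowest there. The part of these markers was not tested either. Pdpn, which encodes the ligand podoplanin, had 17.6, 27.9 and 15.4 CPM in sensitive replicates 1, 2 and 3 and 14.1, 23.4 and 38.4 CPM in resistant replicates 1, 2 and 3, and the groups overlapped.

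Clec4b1, an activating receptor known as DCAR, was near the lower limit of detection, with 17, 54 and 29 counts in sensitive replicates 1, 2 and 3 and 7, 7 and 17 in resistant replicates 1, 2 and 3. It reached the level of the filter in all 3 sensitive libraries and in 1 resistant one, so that the passed filter itself follows the difference. Its log2 fold change of -1.87 (standard error 0.767, unadjusted p = 0.0442, edgeR) was -1.12 without sensitive replicate 2, with an unadjusted p of 0.127 in edgeR. The unadjusted p was also above 0.05 in edgeR without sensitive replicate 3 (0.0577), resistant replicate 1 (0.130) or resistant replicate 2 (0.128). Clec5a, the DAP12-coupled receptor MDL-1, had 8.66, 9.94 and 3.75 CPM in sensitive replicates 1, 2 and 3 and 3.91, 5.56 and 3.23 CPM in resistant replicates 1, 2 and 3, with overlapping groups and a log2 fold change of -0.89 (standard error 0.479). Clec9a, the dead-cell receptor DNGR-1 of cross-presenting dendritic cells, had 12.7, 13.1 and 16.9 CPM in sensitive replicates 1, 2 and 3 and 10.6, 13.2 and 8.32 CPM in resistant replicates 1, 2 and 3, with the groups overlapping. The 8 dendritic cell markers summed to between 11.5 and 37.0 CPM. Of these, 3 were tested, 1 with a fold change above 0 and 2 below. Batf3, a transcription factor of cross-presenting dendritic cells, had between 163 and 528 counts and Zbtb46 between 42 and 148, while Xcr1, a defining gene of those cells, had at most 5 counts in a library, Flt3 at most 24 and Cd209a none. Their part in the Clec9a level was not tested. The 3' end of Clec1b overlaps the start of Clec9a on the same strand by 184 exon bases in GENCODE, so counts in that stretch cannot be given to 1 of the genes with certainty.

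**Figure D3:**
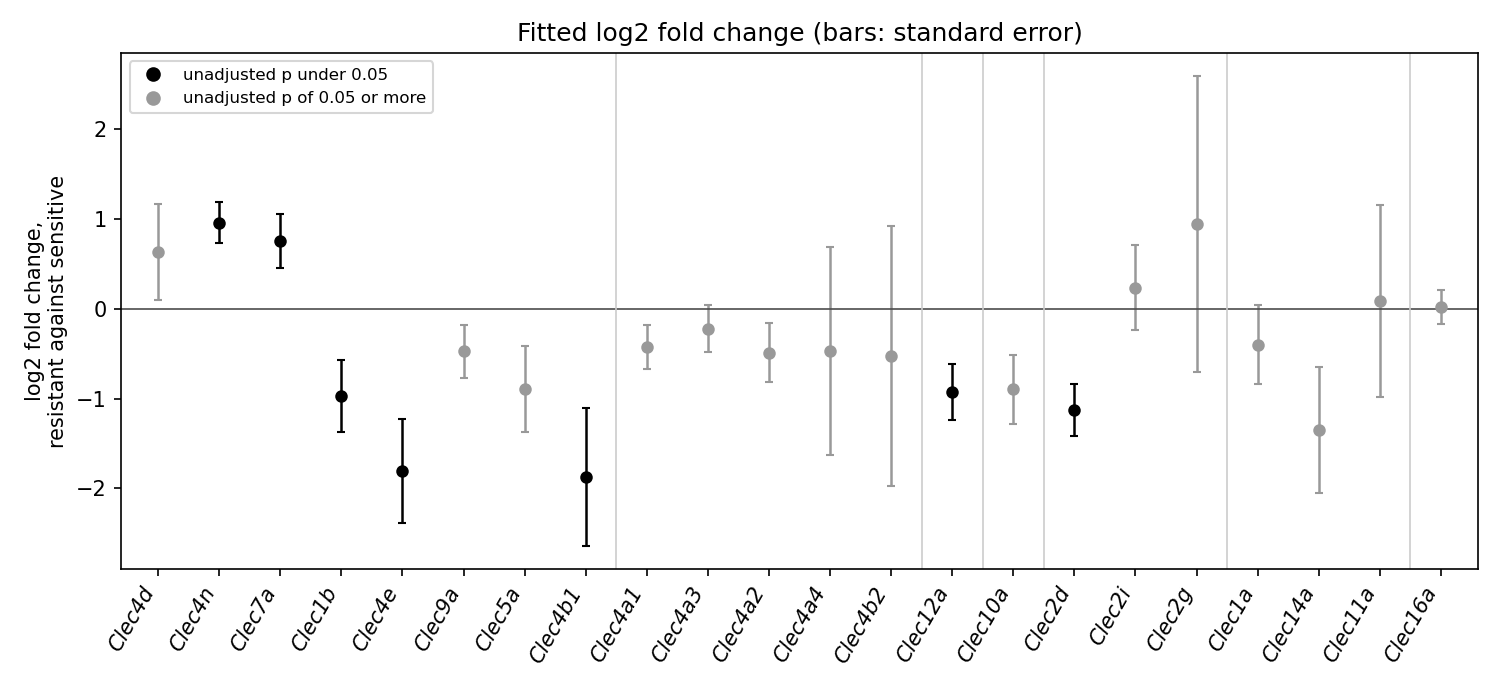
Log2 fold change of each tested Clec gene, resistant against sensitive, from edgeR's quasi-likelihood fit, with bars of 1 standard error, in the order of the plot of CPM. Black points have an unadjusted p below 0.05. Clec4n and Clec7a are the black points above 0, and Clec1b, Clec4e, Clec4b1, Clec12a and Clec2d those below.

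The DCIR group, here the Clec4a genes and Clec4b2, consists of DCIR, an inhibitory ITIM receptor of dendritic cells and macrophages, and its close relatives. It was set by relation and not by signaling, and an inhibitory ITIM is ascribed here only to Clec4a2 and Clec4a4. Clec4b2 was not counted among the activating receptors. All 5 members were tested and had fold changes below 0, but 0 reached an unadjusted p below 0.05 by edgeR, and the groups overlapped for each. Clec4a1 had 164, 149 and 225 CPM in sensitive replicates 1, 2 and 3 and 136, 165 and 117 CPM in resistant replicates 1, 2 and 3. Clec4a3 had 117, 89.0 and 163 CPM in sensitive replicates 1, 2 and 3 and 93.2, 126 and 108 CPM in resistant replicates 1, 2 and 3. Sensitive replicate 3 was the highest library for both genes. Clec4a2, which encodes DCIR, had 46.1, 69.2 and 43.4 CPM in sensitive replicates 1, 2 and 3 and 34.2, 52.0 and 34.1 CPM in resistant replicates 1, 2 and 3, highest in sensitive replicate 2. Their log2 fold changes were -0.42, -0.22 and -0.49, with standard errors of 0.241, 0.260 and 0.329. Clec4a4 was not detected in sensitive replicate 2, with 40, 0 and 39 counts in sensitive replicates 1, 2 and 3 and 25, 23 and 9 in resistant replicates 1, 2 and 3. Clec4b2 had 60, 4 and 1 counts in sensitive replicates 1, 2 and 3 and 35, 11 and 1 in resistant replicates 1, 2 and 3, a spread inside each group that left its standard error at 1.45. Of the windows of 50 bases in the transcripts of Clec4a4, 15.7% also occur in another gene, Clec4a2, and for Clec4b1, of the activating receptors, 8.68%, so low counts of these may be shared.

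Of the inhibitory receptors outside that group, Clec12a, which encodes MICL, a receptor for uric acid crystals (chr6:129342691-129365303, plus strand), had 122, 208 and 158 CPM in sensitive replicates 1, 2 and 3 and 106, 99.6 and 69.9 CPM in resistant replicates 1, 2 and 3. All resistant libraries were below all sensitive ones, and the means were 163 ± 43.3 CPM (SD, n = 3) for sensitive and 91.9 ± 19.3 CPM (SD, n = 3) for resistant libraries. They gave a log2 fold change of -0.93 (standard error 0.314, unadjusted p = 0.0213, edgeR), and without sensitive replicate 2 the value was -0.62. Without resistant replicate 3 it was -0.75 (unadjusted p = 0.0791, edgeR). Neutrophils also express Clec12a, their markers were highest in sensitive replicates 1 and 2 and lower in sensitive replicate 3 than in resistant replicates 1 and 2, and their part in the result was not tested. Clec12b had at most 4 counts in a library and was not tested. Clec10a, the galactose and N-acetylgalactosamine receptor MGL1 of macrophages, had 159.5, 258 and 118 CPM in sensitive replicates 1, 2 and 3 and 101, 128 and 78.5 CPM in resistant replicates 1, 2 and 3. Its log2 fold change of -0.90 (standard error 0.385) did not pass (unadjusted p = 0.0521, edgeR), and sensitive replicate 2 held the highest level. The value was -0.42 without that library. Of the Clec10a windows of 50 bases, 9.02% recur in other genes, mainly its neighbor and near copy Mgl2, which had at most 22 counts.

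Most Clec2 genes encode the Clr proteins, surface ligands by which cells engage NKR-P1 receptors of NK cells. Clec2d encodes Clr-b, the ligand of the inhibitory receptor NKR-P1B (chr6:129180615-129186534, plus strand), and had 23.9, 29.6 and 44.2 CPM in sensitive replicates 1, 2 and 3 and 16.8, 15.9 and 14.4 CPM in resistant replicates 1, 2 and 3. The 3 resistant libraries lay close together and below all sensitive ones, with means of 32.5 ± 10.4 CPM (SD, n = 3) for sensitive and 15.7 ± 1.23 CPM (SD, n = 3) for resistant libraries, a sensitive to resistant ratio of 2.08. The libraries gave a log2 fold change of -1.13 (standard error 0.288, unadjusted p = 0.00567, edgeR), and this was between -1.34 and -0.86 when a library was left out, with an unadjusted p below 0.05 in all 13 alternatives tried. Clec2i, which encodes Clr-g, a ligand of NKR-P1F, had 48.1, 22.3 and 79.6 CPM in sensitive replicates 1, 2 and 3 and 46.4, 87.8 and 45.9 CPM in resistant replicates 1, 2 and 3. Its groups overlapped, and the fold change of 0.24 on the log2 scale was -0.09 without sensitive replicate 2. Clec2g had 25, 0 and 1 counts in sensitive replicates 1, 2 and 3 and 34, 0 and 18 in resistant replicates 1, 2 and 3, which left both groups with libraries at 0 or 1 count. Clec2h had 13 counts in sensitive replicate 2, 8 in sensitive replicate 3, 3 in resistant replicate 1 and 0 elsewhere. Clec2e, Clec2f, Clec2j, Clec2l and Clec2m had at most 6 counts in a library. Clec2h and these 5 were not tested. Genes of NKR-P1 receptors were near absent, with at most 17 counts for Klrb1b, at most 1 for Klrb1f and none for Klrb1c. The 6 NK cell markers summed to between 0.0506 and 5.34 CPM.

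The endothelial and secreted members were low in these libraries. Clec1a, an endothelial receptor for fungal melanin, had 47, 44 and 63 counts in sensitive replicates 1, 2 and 3 and 34, 35 and 56 in resistant replicates 1, 2 and 3, and the groups overlapped. Clec14a, an endothelial membrane protein that binds multimerin-2, had 34, 12 and 62 counts in sensitive replicates 1, 2 and 3 and 23, 7 and 14 in resistant replicates 1, 2 and 3, and the groups overlapped. Its log2 fold change of -1.35 (standard error 0.700) had an unadjusted p of 0.0942 in edgeR. It was -1.71 (unadjusted p = 0.0233, edgeR) without sensitive replicate 2 and -0.76 (unadjusted p = 0.365, edgeR) without sensitive replicate 3. The pan-endothelial markers summed to between 168 and 401 CPM in sensitive and between 39.4 and 320.5 in resistant libraries. Of these, 10 of 10 had fold changes below 0, where 50.8% of all genes tested were above 0. In edgeR 5 had an unadjusted p below 0.05, against 3.08% of all genes tested. Their log2 fold changes were uneven, from -0.0011 for Cdh5, which was level, to -1.93 for Tek. The part of these markers in the Clec14a result was not tested. Clec11a, a secreted growth factor of bone marrow, had 23, 0 and 23 counts in sensitive replicates 1, 2 and 3 and 18, 14 and 17 in resistant replicates 1, 2 and 3. Clec3b, the plasminogen-binding protein tetranectin, had 6 counts in resistant replicate 1 and 0 elsewhere, Clec18a had 1 count in all, and Clec3a had none in any library. Clec16a, a regulator of mitophagy that shares the family's name, was nearly level, with 40.2, 36.3 and 31.9 CPM in sensitive replicates 1, 2 and 3 and 39.8, 38.5 and 37.2 CPM in resistant replicates 1, 2 and 3 and a log2 fold change of 0.02 (standard error 0.193).

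In the genome, 25 of the 32 members lie on chromosome 6, by their Ensembl identifiers in GENCODE M21. A run of 9 Clec4 genes spans 368 kb (chr6:122921848-123289870), and a run of 14 genes from Clec2j to Clec7a spans 820 kb (chr6:128652416-129472779) within the region of the NK receptor genes. In the Clec4 run all 9 were tested, and the fold changes were below 0 for the 6 genes from Clec4a1 to Clec4b2, above 0 for Clec4n and Clec4d, and below 0 for Clec4e at the end. Clec4n and Clec4e, which have Clec4d between them, had higher and lower values in the resistant group. In the other run 8 were tested, 3 above 0 and 5 below. Its last 2 genes, Clec1a and Clec7a, had log2 fold changes of -0.40 and 0.76. Differences of either direction were seen within both runs.

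**Figure D4:**
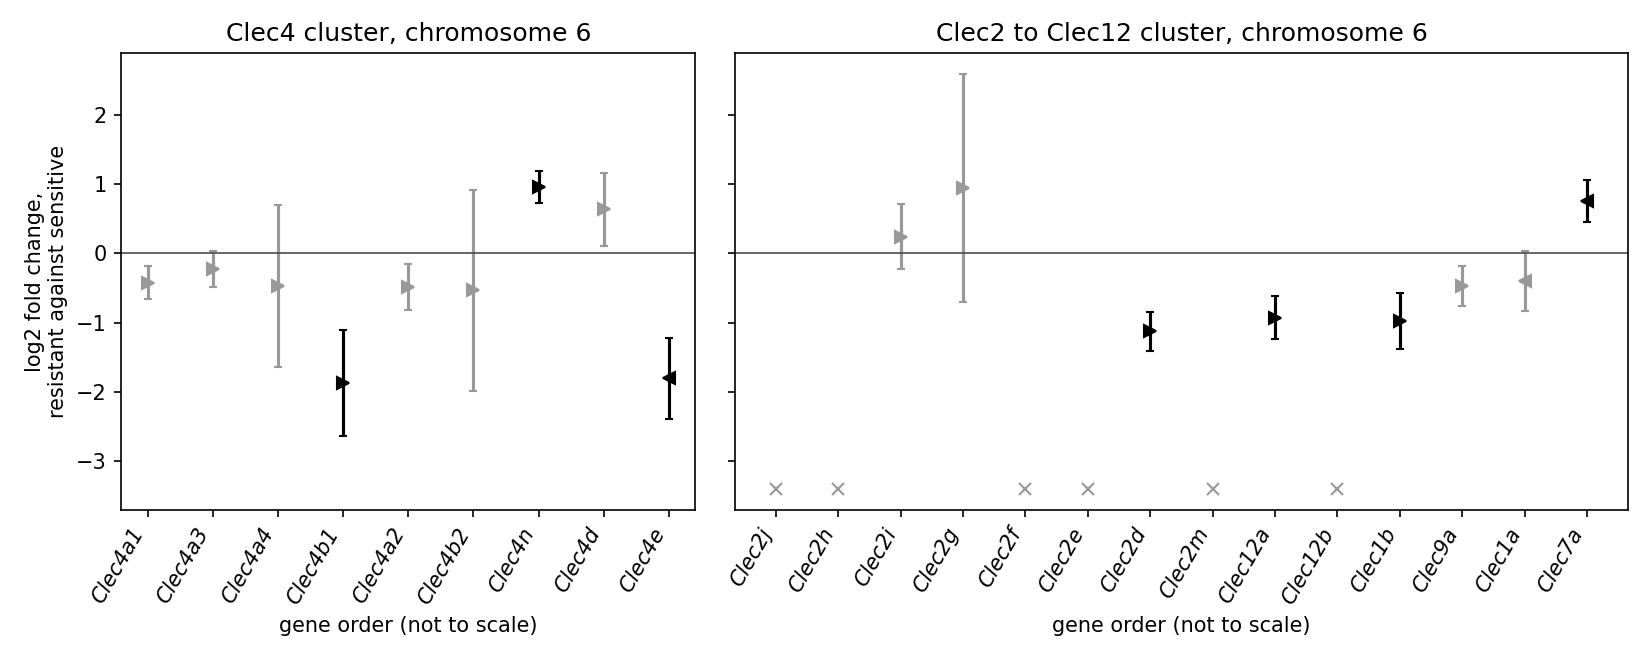
Log2 fold change, resistant against sensitive, with bars of 1 standard error, for the 9 Clec4 genes and the 14 genes from Clec2j to Clec7a in their order along chromosome 6, not to scale. Triangles point in the direction of transcription, black marks an unadjusted p below 0.05, and crosses mark the 6 genes that were not tested in the longer run. Clec4n and Clec4d lie above 0 and Clec4e, the last of its run, at -1.80.

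Of 29 signaling genes that act behind these receptors, all were tested, 16 had fold changes above 0 and 13 below, and edgeR's test passed 0 after adjustment and 1 before it, a share near the 3.08% of all genes tested. That gene was Fgr, a Src family kinase of myeloid cells, with 122, 95.7 and 134 CPM in sensitive replicates 1, 2 and 3 and 82.9, 51.1 and 49.0 CPM in resistant replicates 1, 2 and 3. Every resistant library was below every sensitive one, and the log2 fold change was -1.01 (standard error 0.243). Fcer1g, the Fc receptor gamma chain used by Dectin-2, MCL and Mincle, had 328, 342 and 314 CPM in sensitive replicates 1, 2 and 3 and 306, 368 and 369 CPM in resistant replicates 1, 2 and 3. Syk, the kinase that the activating receptors share, had 442 ± 122 CPM (SD, n = 3) for sensitive and 446 ± 15.5 CPM (SD, n = 3) for resistant libraries, and Tyrobp, which encodes DAP12, 587 ± 132 CPM (SD, n = 3) for sensitive and 539 ± 132 CPM (SD, n = 3) for resistant libraries. The log2 fold changes of Fcer1g, Syk and Tyrobp were 0.01, -0.03 and -0.21, each smaller than its standard error. Card9, the adaptor downstream of Syk, was -0.64 and became 0.01 without sensitive replicate 2. Hcst, which encodes DAP10, was -0.79 with a standard error of 0.496, and Ptpn6, the phosphatase SHP-1 of the inhibitory receptors, -0.32 with 0.239.

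Among known partners of Clec proteins, Pdpn, Sap130 and Mmrn2 were tested and 0 reached an unadjusted p below 0.05 by edgeR. Sap130, a nuclear protein that Mincle binds when cells die, had 39.3, 33.8 and 40.8 CPM in sensitive replicates 1, 2 and 3 and 43.8, 44.6 and 50.7 CPM in resistant replicates 1, 2 and 3, all resistant above all sensitive libraries, with a log2 fold change of 0.23 (standard error 0.185). Mmrn2, which encodes the Clec14a ligand multimerin-2, was between 3.49 and 41.9 CPM in the resistant group, a range that holds the whole sensitive group. Of 37 C-type lectin-like genes with other names, 20 were tested, 7 with fold changes above 0 (50.8% over all genes tested) and 13 below. In edgeR's test 0 passed the adjusted threshold and 2 had an unadjusted p below 0.05, against 3.08% of all genes tested. Among these was Ly75, the uptake receptor DEC-205, with 15.3, 11.5 and 9.54 CPM in sensitive replicates 1, 2 and 3 and 8.54, 7.94 and 5.46 CPM in resistant replicates 1, 2 and 3. Its log2 fold change was -0.79, with a standard error of 0.307. Olr1, the oxidized LDL receptor LOX-1, was not among these. It had a log2 fold change of -0.84 with a standard error of 0.592 (unadjusted p = 0.197, edgeR), and its groups overlapped.

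The count of 7 members at an unadjusted p below 0.05 was 4 without resistant replicate 2, where 1.51% of all genes tested had one, 4 without resistant replicate 3 (1.03% of genes) and 5 without sensitive replicate 2 (3.96% of genes), against 3.08% with all libraries. Sensitive replicate 2 was the highest of the 6 libraries for 6 tested members and the lowest for 6, including Clec4n and Clec7a among the lowest. Clec2d and Clec4n kept an unadjusted p below 0.05 whichever library was left out. With 3 libraries against 3, an exact two-sided permutation test of a single gene cannot go below a p of 0.1.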

How the data were processed

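RNA was sequenced from 6 mouse LSEC libraries, grouped and numbered by the sample titles. Per the labels' processing notes, the authors aligned reads with HISAT2 2.0.5 to a build listed as mm9 and counted them with featureCounts 1.5.0-p3, and they deposited raw counts per gene. The authors also deposited FPKM, counts scaled by library total and gene length. FPKM served here to compare levels between genes. In each library it also gave the family's sum and shares and the ratio of Clec4d to Clec4e. No test used FPKM. A table of the authors' DESeq2 comparison was not used. The strand setting is not given in the sources used here, and poly(A) selection as well as removal of ribosomal RNA is described. The table's Ensembl identifiers matched GENCODE M21 (GRCm38) in 94.1% of cases and in 32 of 32 members, and coordinates are GRCm38's. Promoter sequences are from RefSeq (GRCm38.p6), matched by symbol for 24 members.

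Counts of all genes were fitted with edgeR 4.0.16 (R 4.3.3) by filterByExpr, TMM and the robust quasi-likelihood test, two-sided, with no covariate and Benjamini-Hochberg adjustment at 0.05. Standard errors are those implied by the F statistic. Fits were tested on simulated counts. Alternatives were RLE factors, library totals, DESeq2 1.42.0, limma-voom (limma 3.58.1), no filter or at least 10 counts in every library, a replicate block and leaving out each library. Total counts were between 17599326 and 20726684. Nothing says whether same-group libraries came from separate mice, so p-values measure the spread between these libraries. Pairs within a group differed by more than counting noise, the lowest chi-square per gene being 36.7. Members and lists were chosen with earlier results of these data known, and promoters shown after the values were seen. Of 5 motifs searched, 3 came first and 2 shorter ones were added after their matches had been seen. Named are all members, list genes with an unadjusted p below 0.05, fixed receptor-proximal genes, and the 3 genes of each list with the largest fold change and a mean log2 CPM of at least 3. Others named in the text were chosen after their values were seen. Results for some genes that this rule would name are not reported here.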

Additional observations from a re-analysis of the deposited data

How the results depend on the processing

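Clec genes past the adjusted threshold numbered 0 under all 13 alternatives, and from 0 to 0 when each library was left out. At an unadjusted p below 0.05 the number was 7, between 5 and 8 with other tools, scalings and filters, and from 4 to 8 when each library was left out. The share of all genes tested moved too, from 3.08% to between 2.46% (library totals alone) and 5.98% (no filter), and to between 1.03% (without resistant replicate 3) and 6.53% (without sensitive replicate 3), so these counts are not on one background. The number with groups that do not overlap was 5, and from 7 to 10 when each library was left out, where 2 libraries against 3 part more easily. Pathway genes numbered 1, and from 1 to 3 with libraries left out. C-type lectin genes with other names numbered 2, 1 with library totals alone, 4 with the replicate block, and from 0 to 5 with libraries left out. The cause of these shifts was not tested.

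Same-numbered libraries deviated from their group means with correlations of -0.000932, 0.0343 and 0.194 across genes, and 3 of 6 libraries correlated best with their own number, so the number was not used to pair them. With the replicate block 6 Clec genes had an unadjusted p below 0.05. Clec1b (unadjusted p = 0.0906, edgeR) and Clec4b1 (0.0848) no longer did, and Clec10a (0.0156) did.

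Over 35 named genes, 419 of 449 log2 fold changes kept their direction and their side of the adjusted threshold, 0 crossed the threshold and 30 changed direction. With at least 10 counts in every library, Clec16a was -0.0045 and Fcer1g -0.0134. With library totals alone Syk was 0.0121, and with no filter 0.0244. With limma-voom Clec4a4 was 0.56, Clec4b2 0.0927 and Mmrn2 -0.64. With the replicate block Clec4a4 was 0.0067, Clec4b2 0.0152 and Mmrn2 -0.61. With each library left out the ranges were -0.48 to 0.51 for Clec11a, -0.0621 to 0.10 for Clec16a, -0.17 to 0.76 for Clec2i, -0.36 to 0.0304 for Clec4a3, -1.76 to 2.26 for Clec4b2, -0.0431 to 0.13 for Fcer1g, -0.39 to 0.0859 for Tyrobp, -0.20 to 0.11 for Syk, -0.90 to 0.0123 for Card9, -0.19 to 0.63 for Pdpn and -1.53 to 0.59 for Mmrn2. Depth limits what can be said of members with few counts in a library, such as Clec4b1, Clec4a4, Clec4b2, Clec2g and Clec11a.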
